A study of Homo sapiens with 15 samples.

Results

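The genes described here are 46 human genes of DNA replication and S phase, from the loading of the replicative helicase to the supply of nucleotides and the handling of new chromatin. They were taken by symbol from the human rows of a table of raw gene counts. All 46 matched a single gene identifier among 60649 human genes, and all 46 were among the 15435 human genes with enough counts to be tested. The 15 RNA libraries came from subcutaneous tumours grown from A549, an established human lung adenocarcinoma cell line, of which 5000000 cells went into each BALB/c nude mouse. Such animals lack mature T cells and keep macrophages and other innate immune cells. The labels date the restraint of stress mice (n = 5 libraries) to 7 days before the transplant and that of post-stress mice (n = 5 libraries) to 12 days after it, and no-stress mice (n = 5 libraries) were left unrestrained. The labels do not say whether these are durations or starting days. They also do not say that the 5 libraries of a group came from separate animals, so p-values measure the spread between these samples. Every group carries the same A549 cells, and the labels name no genetic change.

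A cell copies its DNA once per division. In G1 the origin recognition complex, CDC6 and CDT1 place the ring-shaped MCM helicase on DNA, and at the start of S phase CDC45 and GINS switch the helicase on. Primase and the polymerases then copy both strands behind it, held on DNA by the sliding clamp PCNA. Most of these genes are read by E2F transcription factors as a cell passes from G1 into S phase, so in tumours their RNA is known as a mark of dividing cells.

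Reads of each library were counted on human and on mouse genes, and levels are given in CPM (counts per 1e6 human counts), scaled for composition. Human counts per library ranged from 12877165 to 15892705, and single replication genes had between 28 and 4224 counts in a library. Between 12.4% and 30.2% of counts fell on genes of the mouse, the host. Of 10 epithelial markers listed for A549, 9 had enough human counts to be tested. Keratin 8 was at 2983 to 4319 CPM, while keratin 19, which was not tested, had 91 counts over all libraries. CDKN2A, which A549 cells have lost, was at 0 counts in 13 of 15 libraries and at most 30 in the other 2. Human markers of leukocytes and stroma summed to 131 to 187 CPM in stress, 95.6 to 233 in post-stress and 123 to 221 in no-stress tumours. The leukocyte antigen PTPRC had 6 counts over all libraries, while COL1A1 had 23335, DCN 3246 and PECAM1 3106. Other collagen and vessel genes of the same list were low, with 3 counts for COL1A2, 15 for COL3A1, 17 for VWF, 27 for CDH5 and 3 for KDR. Between these came the stroma markers LUM with 1189, ACTA2 with 607 and PDGFRB with 576. COL1A1 averaged 106, 101 and 120 CPM in stress, post-stress and no-stress tumours. Of these 25 markers 9 were tested and none passed in any comparison.

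Replication genes were lower in stress tumours than in no-stress tumours, and no member was called higher. With edgeR's quasi-likelihood test and Benjamini-Hochberg adjustment over all tested genes at a threshold of 0.05, 31 of 46 fell, 0 rose and 15 did not pass, while 5.22% of all tested genes fell and 5.23% rose. The log2 fold change was below 0 for 43 members and ran from −0.96 to 0.08, with a median of −0.46, a 0.728-fold level, against a median of −0.01 over all tested genes. The 3 members above 0 were RPA3, POLD3 and SLBP, none of which passed and each of which was below 0 in at least 1 other setting. The CPM of all 5 stress tumours lay below that of all 5 no-stress tumours for 20 members, a separation found for 4.7% of all tested genes. RNA of a whole tumour cannot tell fewer cells in S phase from less replication RNA in each such cell. Summed over the 46 genes the level was 1744 ± 107 CPM in stress, 1936 ± 132 CPM in post-stress and 2352 ± 319 CPM in no-stress tumours (SD, n = 5 each).

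Post-stress tumours stood between the other groups in this sum. Against the same 5 no-stress libraries 5 members fell, MCM10, FEN1, MCM6, MCM3 and PCNA, 0 rose and 41 did not pass, while 0.246% of all tested genes fell (38 genes, with 92 higher; without the scaling for composition 62 were lower and 59 higher). Again 43 members had a log2 fold change below 0, with a median of −0.31 against −0.01 over all tested genes. An unadjusted p under 0.05 with a lower level was found for 27 members and 7.54% of all tested genes. The groups did not overlap for 9 members, against 1.89% of all tested genes. When stress and post-stress tumours were set against each other directly, edgeR called none of the 46 and neither did DESeq2's Wald test. In that comparison 40 members had a log2 fold change below 0 with a median of −0.16. An unadjusted p under 0.05 was found for 7 members, all lower in stress. Such a p came with a lower level in stress for 829 of all tested genes (5.37%) and with a higher level for 887. Of all tested genes 0.0389% were called in either direction. The comparisons with no stress share their no-stress libraries, so they are not separate evidence.

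Single libraries set how many members passed. The count of 31 fell to 19 without stress library 1 and to 20 without no-stress library 1, and it ranged from 19 to 32 over 15 fits that each dropped 1 library. Over all tested genes, the number lower in stress went from 806 to 352 without stress library 1 and to 285 without no-stress library 1. No-stress library 1 held the highest level of all 15 libraries for 40 of the 46 genes, and the median log2 fold change was −0.36 without it. It also had the highest mouse share, 30.2%, and no-stress library 5, with the next highest share, was the lowest of its group for 29 genes. With both left out, a setting chosen after seeing the data, 20 members and 251 of all tested genes fell in stress. Mouse share averaged 21.0% ± 2.34 in stress, 17.6% ± 4.93 in post-stress and 22.6% ± 6.65 in no-stress tumours (SD, n = 5 each). The 2-sided exact permutation p was 0.619 for stress and 0.206 for post-stress against no stress (0.619 and 0.309 after Benjamini-Hochberg adjustment over 3 comparisons). With mouse share as a covariate 27 members and 711 of all tested genes fell in stress. In post-stress no member passed in that setting, and 7 of all tested genes were lower.

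**Figure D1:**
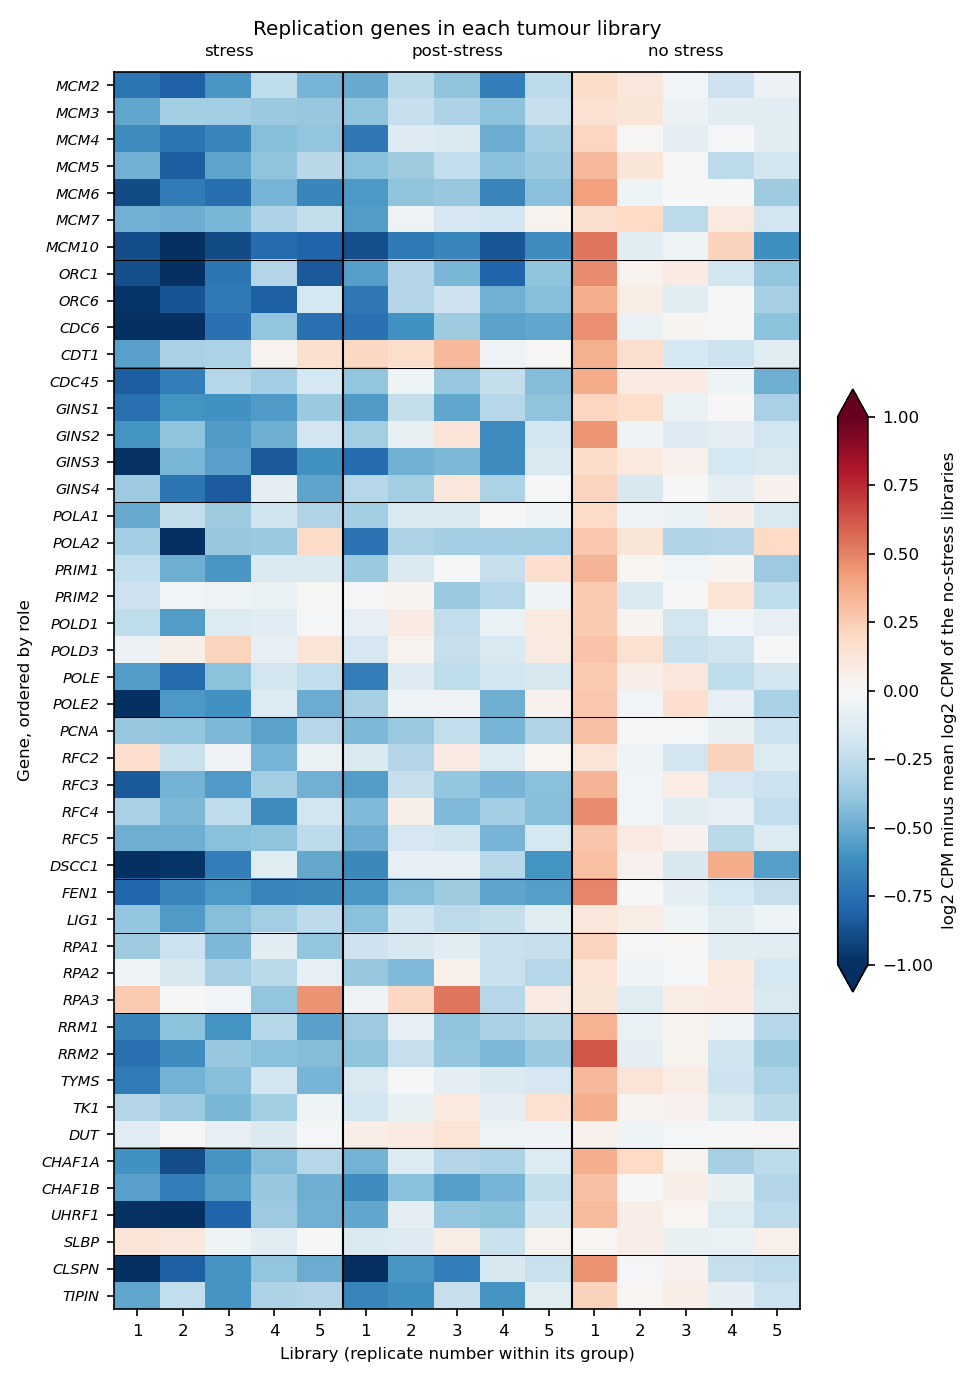
Each row is 1 of the 46 replication genes, ordered by role, and each column 1 library of the stress, post-stress or no-stress group. Colour is the log2 CPM minus the mean log2 CPM of the 5 no-stress libraries, from −1 to 1. Blue fills most rows of the stress columns and, more lightly, of the post-stress columns, while no-stress library 1 is the reddest column, being the highest of 15 for 40 genes.

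The start regions of these genes were searched for the letters that E2F factors bind, since E2F is the textbook regulator of the group. Of the 46 genes 39 had an entry in the RefSeq table of promoter windows (build GRCh38.p14, 250 bases before to 50 after the gene start). The E2F forms TTTCCCGC, TTTGGCGC and TTTCGCGC were sought on both strands. At least 1 of them was in 19 of these 39 windows (48.7%), against 4.45% of 11014 windows of tested genes and 2.79% of all 27305 windows. Among the 27 of these genes that fell in stress 17 windows held a form (63.0%). Among the 12 that did not pass 2 did (16.7%), and this difference was not tested. The median log2 fold change in stress was −0.46 over the 19 genes with a form and −0.41 over the 20 without. The CCAAT box CCAAT was in 56.4% of member windows and 36.3% of windows of tested genes (35.7% of all windows). It was in 19 of the 27 that fell (70.4%) and in 3 of the 12 that did not pass (25.0%), a split not tested either. The CHR element TTTGAA, best known from genes of mitosis, was in 2.56% of member windows, 9.78% of windows of tested genes and 15.4% of all windows. A match is a run of letters, not a shown binding site.

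The 160 bases before the gene start are printed 5′ to 3′ on the strand of the gene for 4 genes that fell and hold a form there, for MCM10, the gene with the lowest log2 fold change, and for SLBP, which did not pass. Capitals mark the E2F forms found, and MCM10 and SLBP have none in this stretch. The RefSeq starts of UHRF1, RFC3, SLBP and MCM10 lie inside the span of the gene in GENCODE 29, and so does that of PCNA.
MCM6 chr2:135876444-135876603, minus strand: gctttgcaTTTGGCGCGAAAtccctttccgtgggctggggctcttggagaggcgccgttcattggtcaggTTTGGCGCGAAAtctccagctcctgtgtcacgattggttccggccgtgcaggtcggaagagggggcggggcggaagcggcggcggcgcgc
PCNA chr20:5126623-5126782, minus strand: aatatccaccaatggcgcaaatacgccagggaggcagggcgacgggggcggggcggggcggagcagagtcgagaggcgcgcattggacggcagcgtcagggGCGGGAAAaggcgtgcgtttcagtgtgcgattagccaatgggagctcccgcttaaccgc
UHRF1 chr19:4909341-4909500, plus strand: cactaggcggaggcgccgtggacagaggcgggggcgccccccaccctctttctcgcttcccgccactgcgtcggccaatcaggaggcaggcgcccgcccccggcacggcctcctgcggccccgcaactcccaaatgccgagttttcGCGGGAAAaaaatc
RFC3 chr13:33817989-33818148, plus strand: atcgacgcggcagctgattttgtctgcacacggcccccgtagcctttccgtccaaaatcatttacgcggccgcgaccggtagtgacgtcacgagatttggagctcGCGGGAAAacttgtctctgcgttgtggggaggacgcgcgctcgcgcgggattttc
MCM10 chr10:13161398-13161557, plus strand: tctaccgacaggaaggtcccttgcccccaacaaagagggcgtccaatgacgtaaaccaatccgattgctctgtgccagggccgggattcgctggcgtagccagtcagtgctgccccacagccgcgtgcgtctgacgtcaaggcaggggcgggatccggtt
SLBP chr4:1712320-1712479, minus strand: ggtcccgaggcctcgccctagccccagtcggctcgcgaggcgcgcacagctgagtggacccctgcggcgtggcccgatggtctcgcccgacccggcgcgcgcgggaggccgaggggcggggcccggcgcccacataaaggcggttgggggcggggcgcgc
In MCM6 each of 2 capital runs, TTTGGCGCGAAA, holds the form TTTGGCGC and, overlapping it, the form TTTCGCGC read on the other strand, which gives 4 matches. In PCNA, UHRF1 and RFC3 the single match is TTTCCCGC on the other strand, which reads GCGGGAAA here. FEN1, RRM2, ORC1 and ORC6 fell with none of these letters in their windows.

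**Figure D2:**
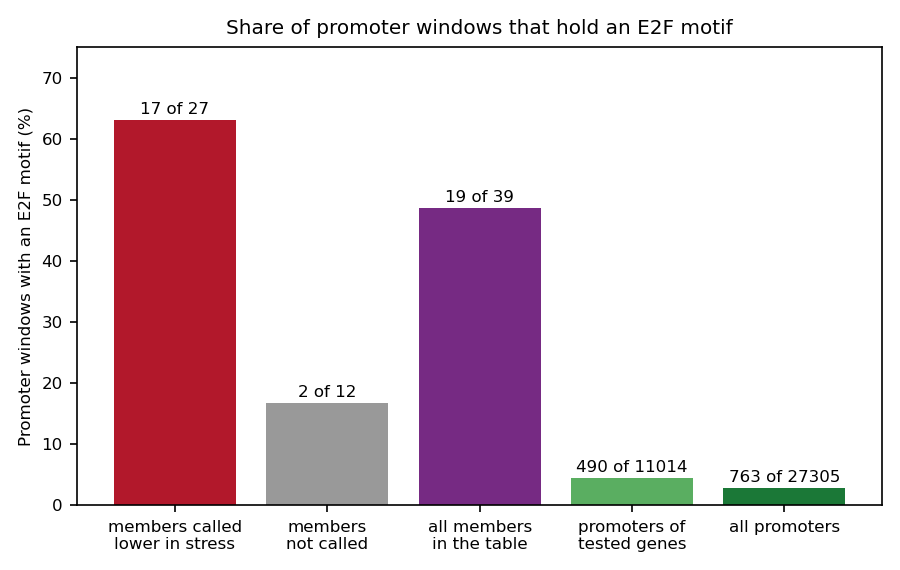
Bars give the percentage of RefSeq promoter windows of 300 bases that hold at least 1 of 3 E2F forms on either strand, with the counts above each bar. The bar of genes called lower in stress reaches 63.0% and that of members not called 16.7%, a difference that was not tested. Beside them stand 4.45% for windows of tested genes and 2.79% for all windows.

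Every gene of the MCM helicase fell in stress. MCM2 to MCM7 form the ring that unwinds DNA, and MCM10 helps to start it. All 7 were called, with log2 fold changes from −0.96 to −0.40 and a median of −0.56. In post-stress 3 of 7 were called. MCM6 (chr2:135839626-135876426, minus strand, in GENCODE 29 on GRCh38, as for the genes that follow) had 47.4, 54.2, 52.2, 63.9 and 56.2 CPM in stress tumours, 59.1, 66.5, 67.9, 55.7 and 65.9 CPM in post-stress tumours and 117, 85.3, 87.7, 87.7 and 68.9 CPM in no-stress tumours. Every restrained tumour lay below every no-stress tumour (stress: log2 fold change −0.71, SE 0.11, edgeR adjusted p = 0.00252; post-stress: log2 fold change −0.50, SE 0.11, edgeR adjusted p = 0.0468). MCM10 (chr10:13161554-13211104, plus strand) was at a low level, with 9.41, 7.39, 9.36, 10.2 and 10.0 CPM in stress tumours, 9.46, 10.7, 11.1, 9.62 and 11.3 CPM in post-stress tumours and 25.2, 16.2, 16.9, 20.5 and 11.4 CPM in no-stress tumours. It had the lowest log2 fold change of the 46 genes in stress, where it fell to 0.514-fold (log2 fold change −0.96, SE 0.16, edgeR adjusted p = 0.00342). It also had the lowest in post-stress (log2 fold change −0.79, SE 0.16, edgeR adjusted p = 0.0308). No-stress library 5 lay just above the restrained tumours.

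MCM3 had 61.8, 70.0, 69.8, 68.5 and 68.1 CPM in stress tumours, 67.2, 75.8, 71.8, 66.8 and 75.7 CPM in post-stress tumours and 98.8, 96.6, 85.0, 82.2 and 82.6 CPM in no-stress tumours. All 10 restrained tumours were below the 5 no-stress tumours, with little spread within each group (stress: log2 fold change −0.40, SE 0.07, edgeR adjusted p = 0.00436; post-stress: log2 fold change −0.32, SE 0.07, edgeR adjusted p = 0.0473). MCM2 had 26.6, 25.1, 29.4, 36.8 and 31.8 CPM in stress tumours, 31.0, 36.5, 33.4, 27.5 and 36.7 CPM in post-stress tumours and 49.9, 47.7, 43.2, 38.2 and 42.2 CPM in no-stress tumours. Groups did not overlap here either, and the call held for stress (log2 fold change −0.56, SE 0.11, edgeR adjusted p = 0.00587) but not for post-stress (log2 fold change −0.42, SE 0.11, edgeR adjusted p = 0.0795). MCM7, the class member with the largest p, had 121, 119.8, 123, 136 and 143 CPM in stress tumours, 115, 163, 150.0, 148 and 173 CPM in post-stress tumours and 188, 194, 141, 179.9 and 148 CPM in no-stress tumours. Its no-stress library 3 lay just below the highest stress tumour, and the gene fell by 24.4% in stress (log2 fold change −0.40, SE 0.11, edgeR adjusted p = 0.0284). The call did not hold without stress library 1, 2 or 3 or no-stress library 1, 2 or 4 (adjusted p up to 0.0878). Post-stress tumours spread from 115 to 173 CPM and did not pass (log2 fold change −0.18, SE 0.11, edgeR adjusted p = 0.455). MCM4 fell to 0.677-fold and MCM5 to 0.704-fold in stress, and neither passed in post-stress (edgeR adjusted p = 0.123 and 0.113).

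The 6 ring subunits, of which a helicase holds 1 each, differed in RNA level per kilobase of the longest annotated transcript. MCM7 averaged 41.7 CPM per kb in stress, 48.5 in post-stress and 55.2 in no-stress tumours. MCM2, at the other end, averaged 8.27, 9.12 and 12.2 CPM per kb in the same groups. Between them came MCM4, MCM3, MCM6 and MCM5 in that order, which was the same in all 3 groups. In no-stress tumours MCM7 (45.6 to 62.8 CPM per kb), MCM4 (32.9 to 41.1) and MCM3 (25.6 to 30.8) did not overlap. MCM3 overlapped MCM6 (18.4 to 31.4), MCM6 just overlapped MCM5 (12.4 to 18.5) and MCM5 overlapped MCM2 (10.5 to 13.8). Over all 46 genes PCNA had the highest level per kb in each group (100.4, 103 and 134 CPM per kb in stress, post-stress and no-stress tumours) and POLA2 the lowest (1.11, 1.09 and 1.47).

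**Figure D3:**
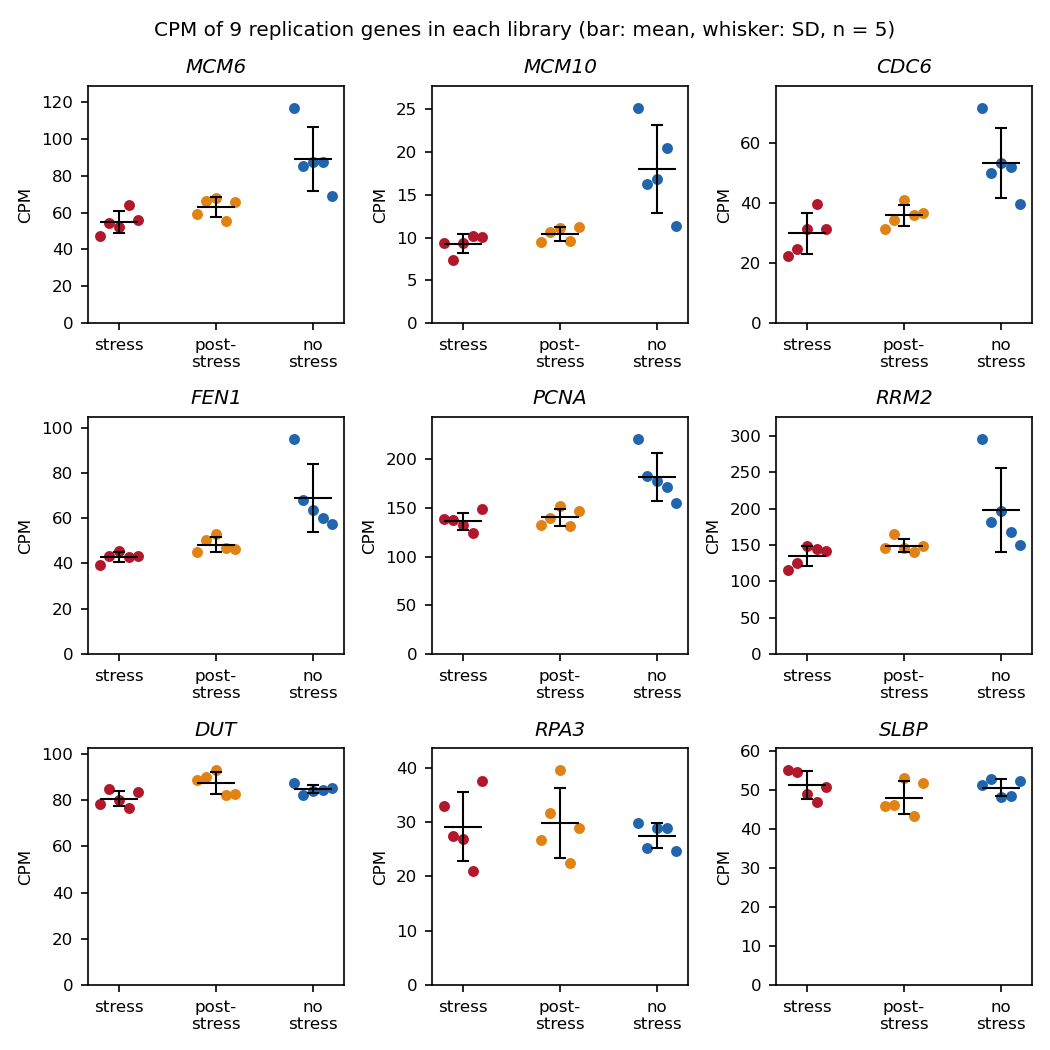
Points are the CPM of 9 replication genes in each of 5 stress, 5 post-stress and 5 no-stress libraries, on axes that start at 0, with bars for the mean and whiskers for the SD. MCM6, MCM10, FEN1 and PCNA show both restrained groups below all no-stress points, while DUT, RPA3 and SLBP overlap in all groups.

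Of the 4 origin licensing genes among the members 3 fell in stress, with the lowest class median, −0.73. CDC6, the ATPase that loads MCM rings onto origins (chr17:40287633-40304657, plus strand), had 22.3, 24.7, 31.3, 39.9 and 31.3 CPM in stress tumours, 31.3, 34.4, 41.0, 36.2 and 36.6 CPM in post-stress tumours and 71.9, 50.1, 53.6, 52.2 and 39.6 CPM in no-stress tumours. Its stress tumours lay below the no-stress tumours but for stress library 4, which just passed no-stress library 5. The gene fell to 0.559-fold in stress (log2 fold change −0.84, SE 0.16, edgeR adjusted p = 0.00517). Post-stress tumours, 1 of which was above no-stress library 5, did not pass (log2 fold change −0.58, SE 0.15, edgeR adjusted p = 0.0893). ORC1 and ORC6, subunits of the origin recognition complex, fell to 0.593-fold and 0.616-fold in stress (edgeR adjusted p = 0.00784 and 0.0104). The subunits ORC2, ORC3, ORC4 and ORC5, tested among the other replication factors described below, did not pass in stress. Their log2 fold changes were 0.04, 0.07, 0.14 and −0.09 (edgeR adjusted p = 0.798, 0.684, 0.288 and 0.754). CDT1, the partner of CDC6 in loading, had 16.9, 19.7, 19.8, 25.1 and 27.4 CPM in stress tumours, 28.3, 27.7, 30.9, 24.0 and 24.8 CPM in post-stress tumours and 31.4, 27.5, 21.8, 21.2 and 22.6 CPM in no-stress tumours. The 3 groups overlapped, and CDT1 passed neither in stress (log2 fold change −0.19, SE 0.14, edgeR adjusted p = 0.401, 95% interval −0.46 to 0.08) nor in post-stress (log2 fold change 0.12, SE 0.14, edgeR adjusted p = 0.723, 95% interval −0.14 to 0.39).

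CDC45 and the 4 GINS subunits join the MCM ring to make the active helicase, and 4 of the 5 fell in stress (median −0.49) while 0 of 5 passed in post-stress (median −0.32). GINS1 had 20.0, 22.1, 22.0, 22.6 and 26.0 CPM in stress tumours, 22.6, 28.4, 23.4, 27.5 and 25.4 CPM in post-stress tumours and 38.9, 37.8, 32.1, 33.5 and 26.8 CPM in no-stress tumours. All 5 stress tumours were lower than any no-stress tumour (log2 fold change −0.59, SE 0.11, edgeR adjusted p = 0.00421). Post-stress tumours overlapped no-stress library 5 (log2 fold change −0.41, SE 0.11, edgeR adjusted p = 0.0728). GINS3 fell to 0.624-fold in stress (edgeR adjusted p = 0.00555). GINS2 and GINS4 passed narrowly in stress (edgeR adjusted p = 0.0451 and 0.0439), and each lost its call 11 times when 1 of the 15 libraries was dropped. GINS2 stayed called without stress library 5, post-stress library 3 or 4 or no-stress library 5 (adjusted p up to 0.154 in the others), and GINS4 without stress library 4, post-stress library 2 or 3 or no-stress library 2 (up to 0.129 in the others). CDC45 had 7.83, 8.58, 11.4, 10.9 and 12.3 CPM in stress tumours, 10.6, 13.5, 10.7, 11.8 and 10.3 CPM in post-stress tumours and 17.9, 14.7, 14.7, 13.5 and 9.89 CPM in no-stress tumours. No-stress library 5 lay within the stress range, and CDC45 missed the threshold (log2 fold change −0.47, SE 0.16, edgeR adjusted p = 0.0610, 95% interval −0.78 to −0.17), passing when that library was dropped and with no other dropped.

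Of the polymerase and primase genes 3 of 8 fell in stress (median −0.32) and 0 of 8 were called in post-stress (median −0.14). POLA1, the catalytic subunit of the polymerase that starts each new strand, had 22.7, 27.2, 25.0, 27.9 and 26.1 CPM in stress tumours, 25.4, 28.9, 29.1, 32.0 and 31.1 CPM in post-stress tumours and 36.6, 31.3, 30.6, 33.7 and 28.9 CPM in no-stress tumours. The stress tumours lay just below the no-stress tumours (log2 fold change −0.32, SE 0.09, edgeR adjusted p = 0.0291). The call ended without stress library 1, 3 or 5 or no-stress library 1 or 4 (adjusted p up to 0.102). Of polymerase epsilon, which copies the leading strand, POLE fell to 0.743-fold and POLE2 to 0.684-fold (edgeR adjusted p = 0.0399 and 0.0492), and both calls were unsteady. That of POLE ended without stress library 1, 2 or 3, post-stress library 4 or no-stress library 1, 2 or 3 (adjusted p up to 0.126), and that of POLE2 held, with 1 library dropped, only without stress library 4 or no-stress library 5 (up to 0.140 in the others). Neither member that is a subunit of polymerase delta, which copies the lagging strand, passed. POLD3, its accessory subunit, had 35.7, 38.7, 43.4, 35.0 and 40.6 CPM in stress tumours, 33.1, 38.0, 31.6, 33.4 and 39.5 CPM in post-stress tumours and 45.3, 41.3, 31.8, 32.3 and 36.8 CPM in no-stress tumours. All groups overlapped (log2 fold change 0.04, SE 0.10, edgeR adjusted p = 0.832, 95% interval −0.16 to 0.25). The catalytic subunit POLD1 did not pass (log2 fold change −0.21, edgeR adjusted p = 0.228). The delta subunits POLD2 and POLD4 were tested among the other replication factors described below. POLD2 fell in stress (log2 fold change −0.34, edgeR adjusted p = 0.0363), while POLD4 did not pass (log2 fold change −0.02, edgeR adjusted p = 0.907). The primase subunits PRIM1 and PRIM2 and POLA2 did not pass in stress either, with log2 fold changes of −0.33, −0.08 and −0.40.

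The clamp PCNA and its loaders had 4 of 6 members called in stress (median −0.42) and 1, PCNA itself, in post-stress (median −0.34). PCNA (chr20:5114953-5126626, minus strand), the ring that tethers polymerases to DNA, had 139, 138, 132, 125 and 148 CPM in stress tumours, 132, 139, 152, 131 and 147 CPM in post-stress tumours and 221, 182, 178, 172 and 155 CPM in no-stress tumours. Its fold changes in the 2 restrained groups were close, and no restrained tumour reached the lowest no-stress tumour (stress: log2 fold change −0.41, SE 0.09, edgeR adjusted p = 0.00760; post-stress: log2 fold change −0.37, SE 0.09, edgeR adjusted p = 0.0491). RFC3 and RFC5, subunits of the clamp loader, fell to 0.685-fold and 0.745-fold in stress (edgeR adjusted p = 0.00830 and 0.0184). RFC5 was no longer called without stress library 1 or no-stress library 1 (adjusted p up to 0.0685). DSCC1, of the alternative loader used in sister chromatid cohesion, fell to 0.623-fold (edgeR adjusted p = 0.0440). Its call ended without stress library 1, 2, 3 or 5, post-stress library 4 or no-stress library 1, 2, 3 or 4 (adjusted p up to 0.121). RFC2, another subunit of the clamp loader, had 46.2, 35.3, 40.1, 29.7 and 39.2 CPM in stress tumours, 37.2, 33.6, 43.5, 37.3 and 41.6 CPM in post-stress tumours and 45.0, 39.9, 36.0, 48.3 and 37.4 CPM in no-stress tumours. Its groups overlapped throughout, with the highest stress tumour above 4 of the 5 no-stress tumours (log2 fold change −0.12, SE 0.11, edgeR adjusted p = 0.551, 95% interval −0.34 to 0.10). RFC4 did not pass (log2 fold change −0.38, edgeR adjusted p = 0.0865).

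FEN1 and LIG1 trim and seal the Okazaki fragments of the lagging strand, and both fell in stress. FEN1 (chr11:61792637-61797244, plus strand) had 39.3, 43.1, 45.4, 42.8 and 43.3 CPM in stress tumours, 45.2, 50.4, 53.0, 46.9 and 46.3 CPM in post-stress tumours and 95.2, 67.9, 63.7, 60.1 and 57.6 CPM in no-stress tumours. Stress tumours kept within 39.3 to 45.4 CPM, the no-stress tumours ran up to 95.2 CPM in library 1, and neither restrained group overlapped them (stress: log2 fold change −0.69, SE 0.11, edgeR adjusted p = 0.00241; post-stress: log2 fold change −0.51, SE 0.11, edgeR adjusted p = 0.0373). LIG1, the ligase that joins the fragments, had 31.2, 27.5, 30.4, 31.9 and 33.9 CPM in stress tumours, 30.5, 35.4, 33.9, 34.6 and 37.8 CPM in post-stress tumours and 44.1, 42.9, 39.6, 37.7 and 39.5 CPM in no-stress tumours. Again stress tumours lay below all no-stress tumours (log2 fold change −0.40, SE 0.08, edgeR adjusted p = 0.00601). Post-stress tumours overlapped them only at no-stress library 4 (log2 fold change −0.24, SE 0.08, edgeR adjusted p = 0.147). RPA coats the single strands that the helicase opens, and of its 3 subunits 1 fell in stress (median −0.18). RPA1, the large subunit, had 74.9, 82.5, 70.1, 88.4 and 72.7 CPM in stress tumours, 83.1, 85.7, 88.7, 82.2 and 81.6 CPM in post-stress tumours and 112, 95.2, 96.8, 89.1 and 88.1 CPM in no-stress tumours. It fell by 19.1% with stress library 4 just above the lowest no-stress tumour (log2 fold change −0.31, SE 0.08, edgeR adjusted p = 0.0215). The call ended without stress library 1, 3 or 5 or no-stress library 1 or 3 (adjusted p up to 0.0796).

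RPA3, the smallest subunit, had 32.9, 27.5, 26.8, 20.9 and 37.5 CPM in stress tumours, 26.6, 31.5, 39.6, 22.5 and 28.9 CPM in post-stress tumours and 29.7, 25.1, 28.9, 28.9 and 24.7 CPM in no-stress tumours. It spread more within the restrained groups than between groups and had the highest log2 fold change of the 46 genes without passing (log2 fold change 0.08, SE 0.15, edgeR adjusted p = 0.778, 95% interval −0.21 to 0.38). RPA2 did not pass in stress (log2 fold change −0.18, edgeR adjusted p = 0.250).

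Genes that supply or clean the nucleotide pool were split. Both subunits of ribonucleotide reductase, which makes deoxynucleotides, and thymidylate synthase TYMS fell in stress, while thymidine kinase TK1 and the dUTPase DUT did not pass. That makes 3 of 5 in stress (median −0.46), while 0 of 5 passed in post-stress (median −0.13). RRM1 had 68.5, 81.9, 72.2, 89.4 and 74.7 CPM in stress tumours, 84.5, 103, 82.3, 87.2 and 89.9 CPM in post-stress tumours and 139, 104, 112, 107 and 89.5 CPM in no-stress tumours. Stress tumours were below all no-stress tumours, though the highest stress tumour nearly reached the lowest no-stress tumour (log2 fold change −0.51, SE 0.10, edgeR adjusted p = 0.00735). RRM2 (chr2:10120698-10131419, plus strand), the subunit whose level follows the cell cycle, had 115, 125, 148, 144 and 142 CPM in stress tumours, 146, 165, 147, 141 and 149 CPM in post-stress tumours and 297, 181, 197, 168 and 149 CPM in no-stress tumours. No-stress library 1 stood far above the other 14 libraries, and stress tumours were below the no-stress group (log2 fold change −0.56, SE 0.14, edgeR adjusted p = 0.0210). The log2 fold change was −0.36 without no-stress library 1, and the call did not hold without stress library 1 or 2 (adjusted p up to 0.0630). TYMS fell to 0.728-fold (edgeR adjusted p = 0.0239). The call was lost without stress library 1, 2 or 5 or no-stress library 1 or 3 (adjusted p up to 0.0846). DUT, which destroys dUTP before it enters DNA, had 78.3, 84.8, 80.1, 76.8 and 83.7 CPM in stress tumours, 88.7, 90.1, 93.3, 82.1 and 82.7 CPM in post-stress tumours and 87.5, 82.5, 84.1, 84.5 and 85.4 CPM in no-stress tumours. Its groups overlapped and its interval was narrow (log2 fold change −0.07, SE 0.06, edgeR adjusted p = 0.486, 95% interval −0.19 to 0.05).

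Of the 4 genes listed for chromatin behind the fork, which include SLBP for its binding of histone mRNAs, 3 fell in stress (median −0.56). In post-stress 0 fell (median −0.31). UHRF1, which brings DNA methylation to the new strand (chr19:4903080-4962154, plus strand), had 42.3, 39.5, 48.4, 65.1 and 60.0 CPM in stress tumours, 58.4, 78.2, 64.2, 63.2 and 73.0 CPM in post-stress tumours and 105, 87.7, 84.7, 76.2 and 69.8 CPM in no-stress tumours. Stress libraries 1 to 3 were far below the no-stress tumours and libraries 4 and 5 closer to them, with no overlap (log2 fold change −0.73, SE 0.14, edgeR adjusted p = 0.00528). UHRF1 was also the member with the lowest log2 fold change of stress against post-stress (log2 fold change −0.40, SE 0.14, edgeR adjusted p = 0.256), which did not pass. CHAF1A and CHAF1B, subunits of the factor that puts histones on new DNA, fell to 0.674-fold and 0.688-fold in stress (edgeR adjusted p = 0.0132 and 0.00819). SLBP, which binds the stem loop of histone mRNAs, had 55.3, 54.5, 49.1, 47.0 and 50.8 CPM in stress tumours, 45.8, 46.3, 53.2, 43.4 and 51.8 CPM in post-stress tumours and 51.2, 52.9, 48.1, 48.3 and 52.4 CPM in no-stress tumours. The 3 groups overlapped (log2 fold change 0.02, SE 0.07, edgeR adjusted p = 0.891, 95% interval −0.12 to 0.17), and its stretch printed above holds none of the E2F forms.

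CLSPN and TIPIN signal and steady a stalled fork. CLSPN, the mediator that lets ATR switch on CHK1, had 14.9, 17.2, 20.0, 22.9 and 21.4 CPM in stress tumours, 15.1, 20.1, 18.7, 26.9 and 25.8 CPM in post-stress tumours and 41.3, 29.9, 31.0, 25.8 and 25.4 CPM in no-stress tumours. Stress tumours lay below all no-stress tumours (log2 fold change −0.67, SE 0.17, edgeR adjusted p = 0.0196). The call ended without stress library 1 or no-stress library 1 (adjusted p up to 0.0628). Post-stress tumours were spread from 15.1 to 26.9 CPM and did not pass (log2 fold change −0.52, SE 0.17, edgeR adjusted p = 0.144). TIPIN, which travels with the fork, had 7.23, 8.71, 6.87, 8.38 and 8.47 CPM in stress tumours, 6.56, 6.77, 8.84, 6.87 and 9.62 CPM in post-stress tumours and 12.2, 10.5, 10.8, 9.67 and 8.92 CPM in no-stress tumours. It too had no overlap between stress and no stress, but did not pass (log2 fold change −0.39, SE 0.14, edgeR adjusted p = 0.0768, 95% interval −0.67 to −0.12).

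**Figure D4:**
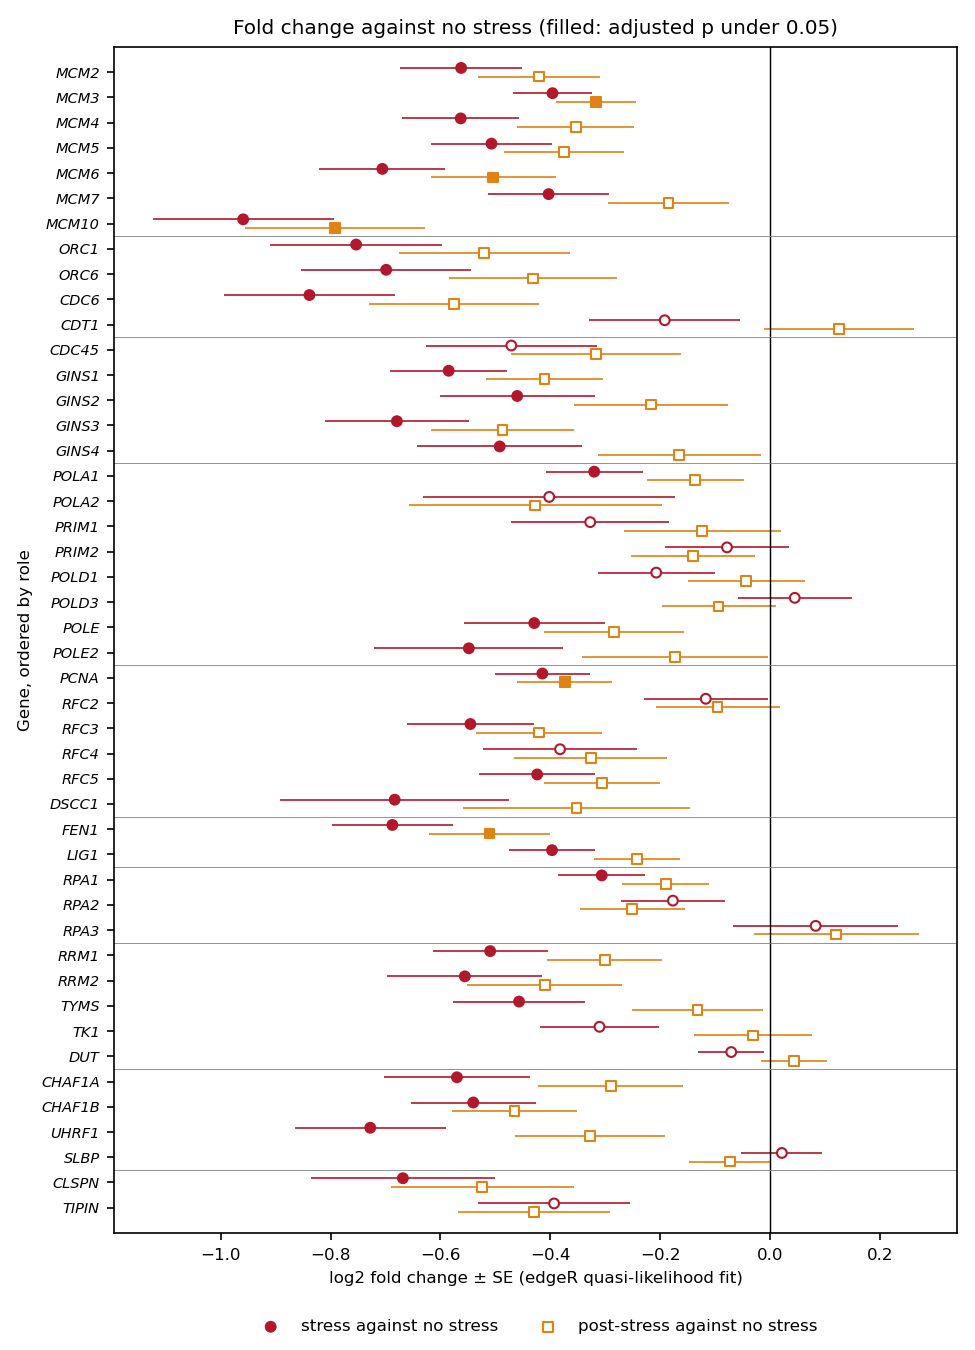
Points are log2 fold changes against no stress with their SE for the 46 replication genes, circles for stress and squares for post-stress, filled where the edgeR adjusted p was under 0.05. Of the circles 31 are filled and 43 lie left of 0; of the squares 5 are filled and 43 lie left of 0.

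The 5 calls in post-stress changed when 1 library was dropped. MCM10 lost its call without post-stress library 1, 2 or 4 or no-stress library 1, 3 or 4 (adjusted p up to 0.101). FEN1 passed only without stress library 1, 2 or 4, post-stress library 3 or no-stress library 4 or 5 (up to 0.0936 in the others). MCM3 passed only without no-stress library 4 or 5 (up to 0.168), MCM6 without stress library 4 or no-stress library 5 (up to 0.137) and PCNA without post-stress library 3 or no-stress library 5 (up to 0.159). The number of members called was 0 without post-stress library 1, 2 or 4 or no-stress library 1 or 3, and 8 without no-stress library 5. It was also 0 when the fit held only the 2 groups compared, 1 with limma-voom and 11 with DESeq2's Wald test. These settings called 13, 34 and 177 of all tested genes lower, against the 38 given above. Without post-stress library 1, 2 and 4 the number over all tested genes was 10, 11 and 27. It was 5, 8 and 45 without no-stress library 1, 3 and 5. The median log2 fold change of the members was −0.21 without no-stress library 1.

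Some replication factors outside the 46 also fell in stress. Of 37 listed, 35 were tested, 12 fell in stress, 0 rose and the median log2 fold change was −0.26, with 0 called in post-stress. The count was 3 without stress library 1 or 3, 4 without stress library 2 or no-stress library 3, and 2 without no-stress library 1. With all libraries 806 of all tested genes (5.22%) fell, and 352, 486 and 483 did without stress library 1, 2 and 3. Without no-stress library 1 and 3 the number over all tested genes was 285 and 413. Among those that fell were POLE3, a histone-fold subunit of polymerase epsilon, ATAD5, which takes PCNA off DNA, and TIMELESS, the partner of TIPIN. ATAD5 averaged 14.3 ± 1.08, 14.9 ± 2.59 and 21.9 ± 4.17 CPM in stress, post-stress and no-stress tumours (SD, n = 5 each; log2 fold change −0.61, SE 0.13, edgeR adjusted p = 0.00958). TIMELESS averaged 46.9 ± 5.89, 53.2 ± 4.64 and 69.5 ± 11.4 CPM in the same groups (log2 fold change −0.57, SE 0.11, edgeR adjusted p = 0.00534). POLE3 fell to 0.792-fold (edgeR adjusted p = 0.0133). The histone chaperone ASF1B had 0 counts and RNASEH2A, which removes ribonucleotides, 10 counts over all 15 libraries. Of the 10 protein-coding genes nearest to ASF1B 6 also had under 10 counts, and of the 10 nearest to RNASEH2A 3 did. For none of the 46 genes were more than 5 of the 10 neighbours that low, and their median was 1.5. Why ASF1B and RNASEH2A have almost no counts was not tested. Of 18 other genes of nucleotide supply 7 fell and 1 rose in stress (median −0.26), with 4 lower without stress library 1 or 3 or no-stress library 1 or 3. DTYMK, the thymidylate kinase, was at 0.692-fold, UMPS of pyrimidine synthesis at 0.735-fold and the uracil glycosylase UNG at 0.780-fold (edgeR adjusted p = 0.00498, 0.00341 and 0.00689). The gene that rose was SAMHD1, which breaks down deoxynucleotides, named after its value was seen (log2 fold change 1.00 in stress, edgeR adjusted p = 0.0465, and −0.25 in post-stress, edgeR adjusted p = 0.752). Its call held only without stress library 4, post-stress library 1 or no-stress library 2 when 1 library was dropped.

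Of the regulators upstream, the E2F, DP and RB family had 4 of 18 tested genes lower in stress and 0 higher (median −0.16), and 0 called in post-stress. Only 1 was lower without stress library 1, 2, 3 or 5 or no-stress library 1, 2 or 3. With all libraries 806 of all tested genes (5.22%) fell, and 352, 486, 483 and 493 did without stress library 1, 2, 3 and 5. Without no-stress library 1, 2 and 3 the number over all tested genes was 285, 620 and 413. E2F1, an activator E2F, averaged 16.0 ± 2.52, 21.3 ± 3.94 and 25.9 ± 3.95 CPM in stress, post-stress and no-stress tumours (SD, n = 5 each; log2 fold change −0.70, SE 0.14, edgeR adjusted p = 0.00642). RBL1, which encodes p107, and MYBL2, of the complex that reads late cell cycle genes, fell to 0.726-fold and 0.654-fold (edgeR adjusted p = 0.0313 and 0.0365). Of 17 tested cyclins, kinases and inhibitors of the G1/S step 6 fell and 1 rose in stress (median −0.08), but 0 fell without stress library 1 or no-stress library 1, 2 without stress library 2 or 3 and 3 without stress library 5. Cyclin E2, CCNE2, fell to 0.583-fold and cyclin A2, CCNA2, to 0.695-fold (edgeR adjusted p = 0.0253 and 0.0156). The gene that rose was CDKN1B, which encodes the CDK inhibitor p27, at 121 ± 10.5, 106 ± 7.60 and 81.1 ± 12.0 CPM in stress, post-stress and no-stress tumours (SD, n = 5 each; stress: log2 fold change 0.58, SE 0.10, edgeR adjusted p = 0.00287; post-stress: log2 fold change 0.39, SE 0.10, edgeR adjusted p = 0.0618). CDKN1A, which encodes p21, averaged 183 ± 25.9, 183 ± 50.1 and 144 ± 18.8 CPM in the same groups and did not pass (log2 fold change 0.34, SE 0.16, edgeR adjusted p = 0.173).

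Genes of mitosis and of recombination were set beside the replication genes as the nearest groups. Of 34 genes of mitosis and cytokinesis 19 fell and 0 rose in stress, with a median of −0.52 against −0.46 for the replication genes. The count was 10 without stress library 1, 11 without stress library 2 and 8 without no-stress library 1, and reached 26 without no-stress library 5. Over all tested genes 806 (5.22%) fell with all libraries, and 352 and 486 without stress library 1 and 2. Without no-stress library 1 and 5 that number was 285 and 741. In post-stress 0 of 34 were called, with a median of −0.22 against −0.31, and in stress against post-stress the medians were −0.29 and −0.16. Whether these gene groups differ was not tested. In stress against post-stress CCNB1, KIF20A and the proliferation marker MKI67 had log2 fold changes of −0.36, −0.53 and −0.23 without passing (edgeR adjusted p = 0.227, 0.125 and 0.603). CCNB2, a mitotic cyclin, averaged 24.5 ± 3.31, 32.0 ± 4.81 and 38.5 ± 6.69 CPM in stress, post-stress and no-stress tumours (SD, n = 5 each; stress: log2 fold change −0.65, SE 0.13, edgeR adjusted p = 0.00621; post-stress: log2 fold change −0.27, SE 0.13, edgeR adjusted p = 0.338). Of 27 genes of replication stress and recombination 10 fell and 0 rose in stress (median −0.32). The count was 2, 5, 3 and 6 without stress library 1, 2, 3 and 5, and 1, 4 and 6 without no-stress library 1, 2 and 3. The numbers over all tested genes in these fits are given above with the E2F family. BRIP1, a helicase of crosslink repair, was the 1 member called in post-stress too, at 0.660-fold in stress and 0.672-fold in post-stress (edgeR adjusted p = 0.00821 and 0.0394). Its call in post-stress ended without stress library 3, post-stress library 1, 3, 4 or 5 or no-stress library 1, 2 or 3. BARD1, the partner of BRCA1, and the nuclease EXO1 fell to 0.663-fold and 0.657-fold in stress (edgeR adjusted p = 0.0185 and 0.0241).

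**Figure D5:**
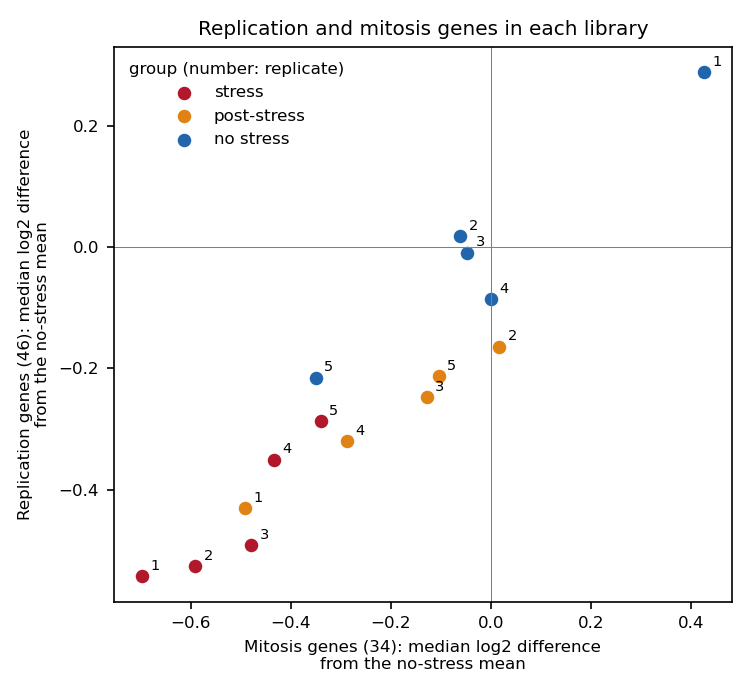
Each point is 1 library of the stress, post-stress or no-stress group, numbered by replicate: the median log2 difference from the no-stress mean over the 34 mitosis genes (x axis) and over the 46 replication genes (y axis). No-stress library 1 stands alone at 0.43 and 0.29, and stress libraries 1 and 2 lie at the other end, at −0.70 and −0.54 and at −0.59 and −0.53.

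Library by library, the median log2 difference of the 46 genes from the no-stress mean was −0.54, −0.53, −0.49, −0.35 and −0.29 in stress libraries 1 to 5. It was −0.43, −0.16, −0.25, −0.32 and −0.21 in post-stress libraries 1 to 5, and 0.29, 0.02, −0.01, −0.09 and −0.22 in no-stress libraries 1 to 5. Every stress library was lower than every no-stress library, and post-stress libraries 2 and 5 were above no-stress library 5. For the 34 mitosis genes the medians were −0.70, −0.59, −0.48, −0.43 and −0.34 in stress, −0.49, 0.02, −0.13, −0.29 and −0.10 in post-stress and 0.43, −0.06, −0.05, 0.00 and −0.35 in no-stress libraries, so that no-stress library 5 lay within the stress range there.

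Some counts of members may hold reads of neighbours, as the strandedness of the counting is not given in the sources used here. Of the exons of TYMS 39.2% lie under exons of ENOSF1 on the opposite strand, which had 312% of the counts of TYMS, and 35.1% of the exons of POLA2 lie under AP000944.2 on the same strand, which had 5.49% of its counts. FEN1 shares 6.70% of its exons with TMEM258 and RPA3 3.65% with UMAD1, both on the opposite strand, and RFC5 shares 5.72% with WSB2 likewise. RFC4 shares 0.70% with EIF4A2 (1672% of the counts of RFC4) and GINS2 0.21% with GSE1 (462% of those of GINS2), both on the opposite strand. CHAF1B shares 1.74% with MORC3 on the same strand, which had 198% of its counts. MCM7 shares 8.94% with AP4M1 on the opposite strand, which had 9.66% of its counts. Annotated pseudogenes of members had at most 0.337% of the counts of their parent gene, the highest being that of DUT.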

How the data were processed

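The deposited table holds raw counts per gene, which the authors made with Trimmomatic 0.39, HISAT2 2.2.1 and featureCounts 2.0.6 on hg38 and mm10, per the submitters' processing notes. The sources used here do not give the strandedness, the annotation release or whether both genomes were aligned jointly. Human rows were tested in 1 model of 15 libraries with edgeR 4.0.16 (R 4.3.3): filterByExpr, TMM scaling within human counts, robust quasi-likelihood test, Benjamini-Hochberg adjustment over 15435 genes, called under 0.05. The tested genes held 99.81% of human counts. The script was checked on simulated counts. DESeq2 1.42.0 and limma 3.58.1 served as alternatives; promoters and tables used Python 3.11.15.

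Groups come from the sample titles. Replicate numbers named libraries only: same-numbered libraries of different groups correlated at −0.191 to 0.124. No library pair held identical values. Members and gene lists were chosen with earlier results of these data known. Values in every library are given for the genes of smallest and largest p in each role class, for every gene called in a comparison with post-stress tumours, and for MCM2, PCNA, RRM2 and CDC6. Of the other lists up to 3 genes by smallest p are named, with MKI67, E2F1, CCNE2 and CDKN1A. The tested subunits of the origin recognition complex and of polymerase delta in those lists are named too. A 95% interval is the log2 fold change with a normal interval from its SE. Levels per kb use the longest protein-coding transcript of GENCODE 29.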

Additional observations from a re-analysis of the deposited data

Results flagged for a closer look

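Single libraries stood apart from the rest of their group for 2 of the replication genes given in every library. MCM3 was at 61.8 CPM in stress library 1, with the other 4 stress libraries between 68.1 and 70.0 CPM, a gap of 0.767 of the range of the group. FEN1 was at 95.2 CPM in no-stress library 1, with the other 4 no-stress libraries between 57.6 and 67.9 CPM, a gap of 0.726 of the range. In all, 78 groups of 5 values were examined by Dixon's test at the 95% level, which flags about 1 group in 20 by chance.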

How the results depend on the processing

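Over 25 other settings, 15 of which left out 1 library, 19 of the 31 members called in stress against no stress stayed called in all, and 12 lost the call in at least 1. Of 15435 genes 806 were lower, 285 to 865 when 1 library was left out, 444 with a replicate block and 251 without the pair of no-stress libraries 1 and 5, an alternative added after the data were seen. Members numbered 31, 19 to 32 with 1 library left out and 20 without that pair. Genes higher numbered 807, 376 to 969 with 1 library left out and 295 without the pair. In post-stress against no stress 38 genes were lower, 5 to 45 with 1 library left out, 62 without TMM, 177 with DESeq2's Wald test, 13 with only the 2 groups, 10 with the block, 7 with mouse share as covariate and 4 without the pair. Members there numbered 5, 0 to 8 with 1 library left out, 11 with the Wald test, 1 with voom, 0 with only the 2 groups, 0 with the block, 0 with mouse share and 1 without the pair. Genes higher numbered 92, 32 to 101 with 1 library left out, 59 without TMM, 327 with the Wald test, 36 with only the 2 groups, 47 with the block, 31 with mouse share and 28 without the pair. In stress against post-stress 2 genes were lower, 0 to 51 with 1 library left out, 63 with the Wald test, 14 with no filter, 0 with only the 2 groups, 0 with the block and 0 with mouse share, and 4 higher, 0 to 138 with 1 library left out, 144 with the Wald test, 22 with no filter, 1 with only the 2 groups, 0 with the block and 0 with mouse share. The causes were not tested. With the replicate block 22 members were lower in stress, as were 9 of the mitosis genes, 4 of the other replication factors, 3 of the recombination genes, 1 of the E2F family and 1 of the G1/S genes. The replicate numbers are not shown to pair libraries.

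The summed level differed by −690.6 to −477.5 CPM (stress) and −498.8 to −285.7 CPM (post-stress) with 1 library left out, against −608.2 and −416.4 CPM. Genes near 0 in stress turned sign: POLD3 ran from −0.005403 (without no-stress library 3) to 0.1301, RPA3 from −0.01777 (without stress library 5) to 0.189 and SLBP from −0.004451 (without stress library 1) to 0.0587, and SLBP was at −0.01423 without TMM (log2 fold changes). Between libraries of a group the chi-square per degree of freedom, pooled over genes, was 12.1 to 40.9, a spread above counting error. How much of the intervals came from this spread or from depth was not tested.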
